A study of Sus scrofa with 19 samples.

Results

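Potassium channel genes were taken as the probe sets whose annotation gave 1 gene symbol beginning with KCN. There were 75 such probe sets for 69 symbols, among 27558 probe sets and 12218 symbols in all, and each symbol was represented by the probe set with the highest mean. Values were deposited log2 signals from whole adrenal glands of 19 male pigs (Sus scrofa), 1 array per piglet and 1 piglet per sow. Sows ate a control diet, a fish oil diet or a microalgae diet from gestation day 75, and received lipopolysaccharide (LPS, a bacterial endotoxin) or saline on gestation day 112. Control-diet sows gave 3 piglets after saline and 3 after LPS, fish oil sows 4 and 4, and microalgae sows 3 and 2. Every piglet was weaned at 21 days, was itself given LPS at 28 days and was killed 2 hours later. The groups therefore differ only in what the sow received, and no unchallenged piglet was measured. The amounts of oil, algae and LPS are not given in the sources used here.

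Potassium channels let potassium ions leave the cell and so hold the membrane negative at rest. Background potassium channels of the zona glomerulosa, the outer cortical layer that makes aldosterone, and of cortisol-producing cells are closed by angiotensin II or ACTH. This closing depolarises the cell and opens calcium channels. In the chromaffin cells of the medulla, voltage-gated and calcium-activated potassium channels end each action potential and limit catecholamine release. The symbols cover pore-forming subunits of the voltage-gated (KCNA to KCNH, KCNQ, KCNS and KCNV), tandem-pore (KCNK), inwardly rectifying (KCNJ) and calcium- or sodium-activated (KCNMA, KCNN and KCNT) kinds. They also cover accessory subunits and regulators (KCNAB, KCNE, KCNIP, KCNMB and KCNRG).

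Of 20 listed medulla markers 12 were measured, and of 14 markers of the steroid-producing cortex 6. The medulla markers, such as the chromogranin CHGB and the adrenaline-forming enzyme PNMT, had mean signals from 4.01 to 10.80, and the cortical markers, such as the steroid enzyme CYP17A1, from 3.91 to 12.36. Array medians lay between 4.38 and 4.52 and correlations between arrays between 0.934 and 0.982. Piglet 24 (fish oil, LPS) and piglet 6 (control, LPS) had the smallest spread of signals and the lowest mean correlations with the others, 0.952 and 0.961. In whole tissue, fewer cells of a type and less RNA per cell cannot be told apart.

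Most channel genes gave a signal above the lowest part of the array. The lowest 25% of probe sets by mean, those under 3.23 log2, were left out of all tests, and 52 of the 69 channel genes passed this cutoff. A total of 40 lay above it on all 19 arrays and 7 on none. The cutoff is a rank among probe sets, not a call of presence, and the signals of different probe sets cannot be set against each other. By kind, 19 of 25 voltage-gated genes passed, 10 of 11 tandem-pore genes, 7 of 12 inward rectifiers, 7 of 7 calcium- or sodium-activated genes and 9 of 14 accessory genes. The 17 genes left out were KCNA3, KCNG3, KCNH7, KCNH8, KCNS2 and KCNV1 among the voltage-gated genes, KCNK10, the inward rectifiers KCNJ1, KCNJ3, KCNJ6, KCNJ13 and KCNJ16, and the accessory genes KCNIP1, KCNIP2, KCNMB2, KCNMB4 and KCNRG. Those under the cutoff on every array were KCNH7, KCNH8, KCNJ1, KCNJ13, KCNRG, KCNS2 and KCNV1. KCNJ1 is best known from the kidney and KCNJ13 from epithelia of the eye and choroid plexus. Fitted without the filter, none of the 17 had an unadjusted limma p under 0.05 in any of the 4 comparisons of maternal treatment or the 2 interactions.

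**Figure D1:**
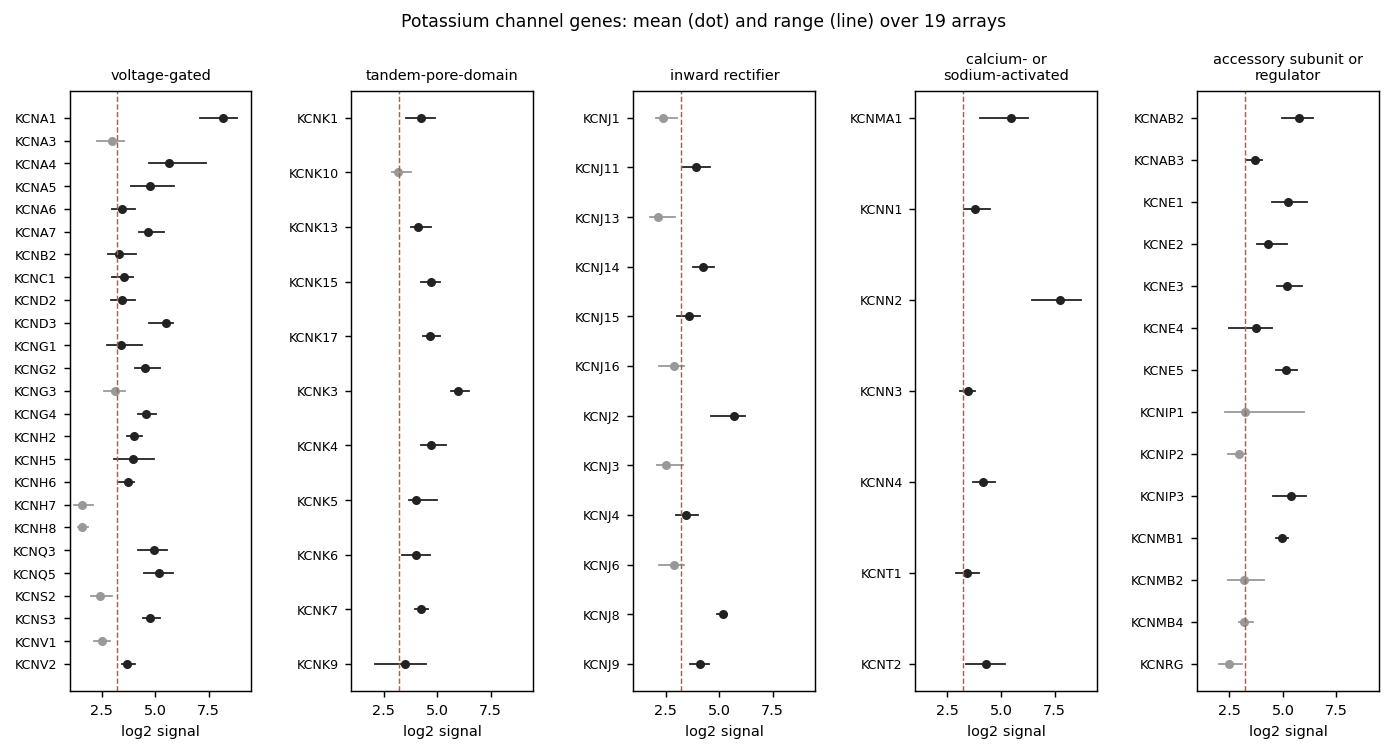
Deposited log2 signal (x axis) of each of the 69 potassium channel genes, grouped by kind of subunit. Dots are means and lines the range over 19 arrays, grey marks the 17 genes left out of the tests, and the dashed line is the cutoff at 3.23; all 7 calcium- or sodium-activated genes have means to the right of it, and KCNIP1 has the widest spread.

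Among the background channels of the cortex, KCNK3 (TASK-1) had a mean signal of 5.98 ± 0.20 (SD, n = 19), ranging from 5.64 in piglet 6 to 6.50 in piglet 18. Its relative KCNK9 (TASK-3), which forms pH-sensitive background channels with it, was far more variable, at 3.50 ± 0.64 with a range from 2.10 to 4.46. KCNK9 also had the largest SD of all 52 tested genes; the median SD was 0.286 for the channel genes and 0.262 for all tested probe sets. KCNK5 (TASK-2), another acid-sensitive background channel, had 18 piglets between 3.68 and 4.26 and piglet 24 at 5.0. KCNK1 (TWIK-1) ranged from 3.57 to 4.89 around a mean of 4.26. These 4 genes thus passed the cutoff, and only KCNK9 crossed it from piglet to piglet. KCNK2, KCNJ5 and KCNQ1, which are known adrenal channels, were not analysed here.

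Several channels of excitable and vascular cells were also measured. The calcium-activated small-conductance channel KCNN2 (SK2) averaged 7.73 ± 0.53, from 6.45 in piglet 6 to 8.74 in piglet 20. Its relatives KCNN1, KCNN3 and KCNN4 averaged 3.78 ± 0.32, 3.44 ± 0.18 and 4.16 ± 0.26. The large-conductance channel KCNMA1 (BK), which responds to both calcium and voltage, averaged 5.47 ± 0.52. Of its beta subunits, which tune its calcium sensitivity, KCNMB1 passed at 4.97 ± 0.18, while KCNMB2 at 3.16 ± 0.48 and KCNMB4 at 3.17 ± 0.17 lay under the cutoff. KCNJ11 (Kir6.2) and KCNJ8 (Kir6.1), the pores of ATP-sensitive channels, averaged 3.91 ± 0.37 and 5.19 ± 0.15. The voltage-gated KCNA1 averaged 8.19 ± 0.44 and the rapidly inactivating KCNA4, found in the zona glomerulosa of other species, 5.64 ± 0.59. KCNA4 spanned 4.70 in piglet 17 to 7.36 in piglet 20. The delayed rectifier KCNH2 (hERG) averaged 4.0 ± 0.21, and KCNE1, an accessory subunit of KCNQ1, 5.23 ± 0.41.

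The spread between piglets was uneven over the channels. After KCNK9 and KCNA4, the next largest SDs among tested genes were those of KCNN2, KCNMA1 and the calcium-binding accessory protein KCNIP3, which ranged from 4.55 in piglet 24 to 6.09 in piglet 21. KCNIP1, a related partner of KCND channels, had the largest SD of all 69 genes, 1.02, but its mean of 3.22 fell just under the cutoff. It stood at 5.64 in piglet 17 and 5.99 in piglet 19 and between 2.31 and 4.04 in the other 17 piglets. Those 2 piglets came from different groups, control diet with LPS and fish oil with LPS. KCNIP1 was singled out after its values were seen, and in the fit without a filter its differences had limma adjusted p of at least 0.934.

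Maternal LPS was compared with maternal saline as the mean difference over the 3 diets, to ask whether a sow's late-gestation endotoxin challenge left a difference in her piglet's gland. No channel gene passed limma's test at an adjusted p of 0.05, while 2 of all 20668 tested probe sets (0.00968%) did. At an unadjusted p under 0.05 there were 3 of 52 channel genes (5.77%), against 6.97% of all probe sets, a share near the background. These 3 were the inward rectifier KCNJ11, the BK pore KCNMA1 and its subunit KCNMB1, and they were also the 3 with an exact permutation p under 0.05. That rule called 6.31% of all probe sets, again near the share of the channel genes. The LPS and saline piglets overlapped for all 52 genes, and groups without overlap were found in 0% of all probe sets. Without piglet 15, 17, 20 or 23 the count was 5. Over the 52 genes, 32 estimates were above 0 and 20 below, with a median of 0.05, beside 0.01 for all probe sets, of which 51.8% were above 0. The median standard error was 0.136.

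KCNJ11, which couples membrane potential to cell metabolism, was the channel gene with the largest positive difference after maternal LPS. Its 9 LPS piglets had a lowest signal of 3.64, a median of 4.19 and a highest of 4.57, and the 10 saline piglets had 3.30, 3.67 and 4.14. The groups overlapped, and all 9 LPS piglets lay above the saline mean of their own diet. Such counts, here and below, were made only for genes already picked by their limma p, so they add no support. The difference was 0.48 ± 0.136 log2 (SE; adjusted p = 0.436 with limma; two-sided exact permutation test within diets, p = 0.00207, unadjusted for the 52 genes). It was 0.37 on the control diet, 0.64 on fish oil and 0.43 on microalgae. KCNJ8, the other ATP-sensitive pore, differed by 0.01, with a 95% interval from -0.17 to 0.19, and its sign changed with the omission of single piglets.

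KCNMB1, the beta subunit known from smooth muscle, showed the same order of groups. LPS piglets ranged from 4.89 through a median of 5.11 to 5.22, and saline piglets from 4.66 through 4.83 to 5.26. All 9 LPS piglets lay above the saline mean of their diet, and 1 saline piglet, piglet 15 on microalgae, lay above every LPS piglet. The difference was 0.23 ± 0.0795 (limma adjusted p = 0.605; exact permutation p = 0.00714). The 8 tested smooth muscle and pericyte markers had a mean score, their log2 signal relative to each marker's own mean, that differed by 0.04 after LPS, with 6 of 8 higher. That score ranged from -0.61 to 0.54 in LPS piglets and from -0.50 to 0.16 in saline piglets, and its part in the KCNMB1 difference was not tested.

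KCNMA1, the pore that KCNMB1 binds, had the opposite sign. On the control diet the saline piglets had signals of 5.28, 5.54 and 5.80 and the LPS piglets 5.79, 4.92 and 5.76. On fish oil the values were 5.73, 5.88, 5.46 and 5.60 after saline and 4.97, 5.68, 5.34 and 4.01 after LPS. Microalgae piglets had 6.27, 6.05 and 5.47 after saline and 5.62 and 4.69 after LPS. The lowest signal was thus in piglet 24, and the saline and LPS ranges overlapped on each diet. The difference was -0.50 ± 0.205 (limma adjusted p = 0.687; exact permutation p = 0.0427), with 6 of 9 LPS piglets under the saline mean of their diet. By diet it was -0.05 on control, -0.67 on fish oil and -0.77 on microalgae. But the interactions of diet with LPS were -0.62 ± 0.470 and -0.72 ± 0.532, with limma adjusted p of 1 and 0.864. The score of the medulla markers also differed after LPS, by -0.17, with 10 of 12 lower. Its means after saline and LPS were 0.07 and 0.01 on control, 0.12 and -0.31 on fish oil, and 0.12 and 0.09 on microalgae. It spanned -0.70 to 0.53 in LPS piglets and -0.28 to 0.43 in saline piglets. With the medulla score in the fit the KCNMA1 difference was -0.33, and medulla content as its cause was not tested.

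**Figure D2:**
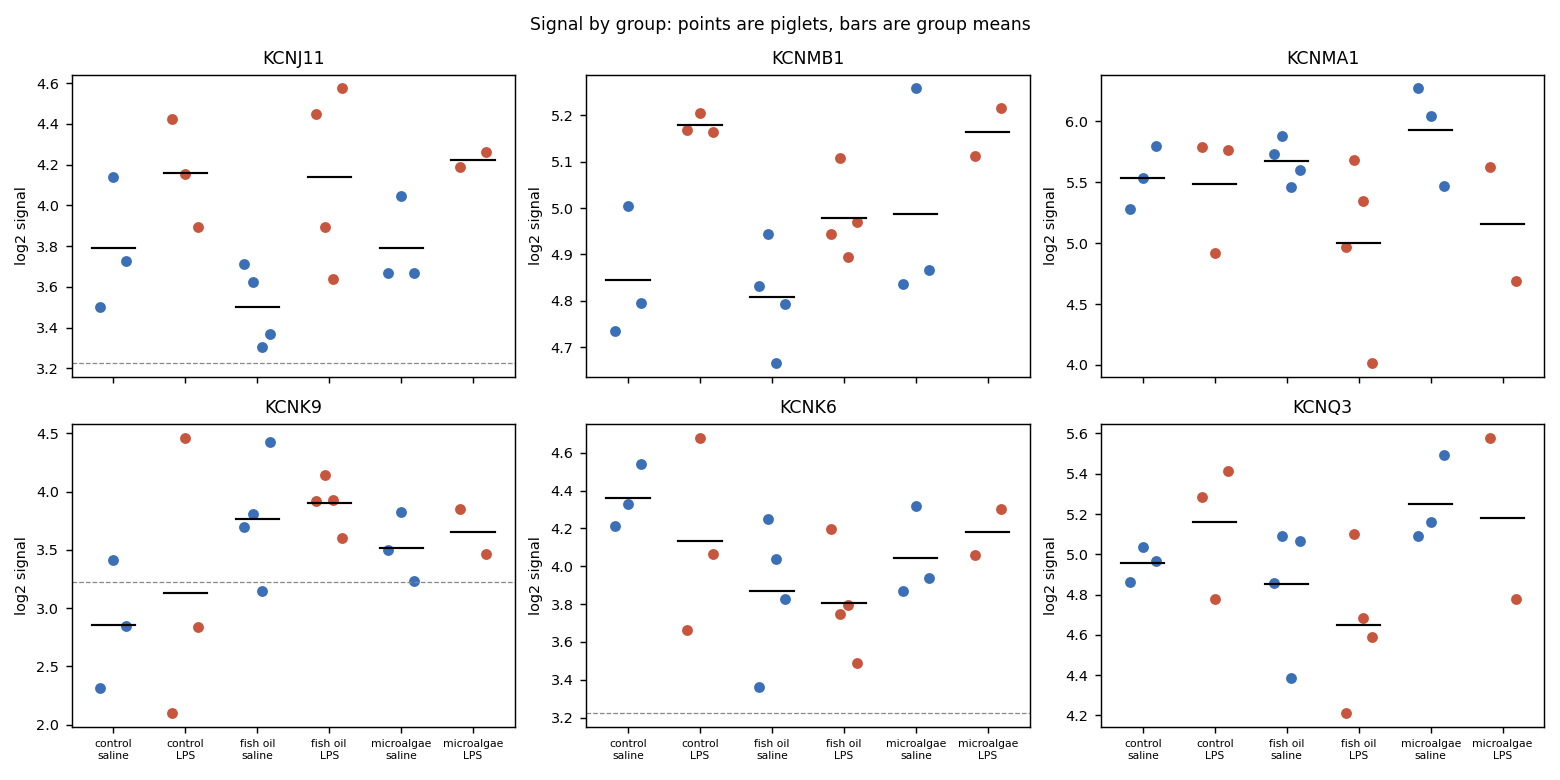
Log2 signal (y axis) of the 6 genes with an unadjusted limma p under 0.05 in a comparison of maternal LPS or diet, by group (x axis); points are piglets, blue after maternal saline and red after maternal LPS, black bars are group means, and a dashed line is the cutoff at 3.23. The top row holds the 3 genes of the LPS comparison, where KCNJ11 and KCNMB1 have higher means after LPS on each diet; in the bottom row both control-diet means of KCNK9 lie under the cutoff.

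The fish oil diet was compared with the control diet as the mean difference over both maternal challenges. With limma, 0 channel genes and 0 of all probe sets (0%) had an adjusted p under 0.05. At an unadjusted p under 0.05 there were 2 of 52 channel genes (3.85%), both tandem-pore, against 2.69% of all probe sets. KCNK9, one of the 2, passed the cutoff only through the piglets of fish oil and microalgae sows, so its values are a description and support no difference, and the count without it was 1. The count with it was 4 without piglet 9 and 6 without piglet 16, 17 or 19. Estimates were below 0 for 36 genes and above 0 for 16, with a median of -0.06, beside 0.00 for all probe sets, of which 50.4% were above 0. The 19 voltage-gated genes had 14 estimates below 0 and the 10 tandem-pore genes 5.

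KCNK9 had higher signals in the fish oil piglets. Their 8 signals had a lowest value of 3.15, a median of 3.86 and a highest of 4.42, and the 6 control-diet piglets had 2.10, 2.84 and 4.46. Control-diet piglet 16 thus had the highest signal of all, and the groups overlapped. The difference was 0.84 ± 0.290 (limma adjusted p = 1; exact permutation p = 0.0376), being 0.91 after saline and 0.77 after LPS. It was 0.58 without piglet 6, which had the lowest signal, and 1.17 without piglet 16. Both control-diet means, 2.86 and 3.13, lay under the cutoff, which KCNK9 passed only through the other diets. Its estimate and p are therefore a description and support no difference. KCNK3, its partner subunit, differed by 0.19 with a 95% interval from -0.06 to 0.44, and by 0.12 without piglet 6 or piglet 18.

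KCNK6 (TWIK-2), a background channel of vascular and immune cells, was lower in the fish oil piglets. Their signals ran from 3.36 through a median of 3.81 to 4.25, and those of control-diet piglets from 3.66 through 4.27 to 4.68. The groups overlapped, with 7 of 8 fish oil piglets under the control mean of their challenge. The difference was -0.41 ± 0.168 (limma adjusted p = 1; exact permutation p = 0.0514). Mean scores of other cells' markers differed between these diets as well, with overlapping ranges, and no such difference was tested. The fibroblast and capsule score differed by -0.49, fish oil minus control, with 13 of 14 markers lower, and ranged from -0.97 to 0.51 on fish oil and from -0.89 to 0.88 on the control diet. The macrophage score differed by 0.20, with 11 of 11 markers higher, from -0.22 to 0.63 on fish oil and from -0.38 to 0.13 on control. The smooth muscle and pericyte score differed by -0.23, with 6 of 8 lower, from -0.61 to 0.23 on fish oil and from -0.10 to 0.54 on control. The endothelial score differed by 0.10, with 7 of 8 higher, and the score of the steroid-producing cortex by 0.15, with 6 of 6 higher. The lymphocyte score differed by 0.18, with 8 of 11 higher. The zona glomerulosa score, where KCNK9 is known, differed by 0.07, with 4 of 5 higher. The part of these cell types in the 2 differences was not tested.

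Of the other channel genes, 2 had an exact permutation p under 0.05 for fish oil without a limma p under 0.05. These were the accessory subunit KCNAB3, at -0.21 (exact p = 0.0269), and the tandem-pore gene KCNK15, at -0.23 (exact p = 0.0359). KCNAB3 was named after its value was seen. Together with KCNK9 that made 3 of 52 genes (5.77%), against 3.44% of all probe sets. KCNK9 passed the cutoff only through the piglets of fish oil and microalgae sows, and the count without it was 2. None of the 52 had groups without overlap, beside 0.0387% of all probe sets. KCNA4 differed by 0.51 ± 0.290, with a 95% interval from -0.10 to 1.12, and by 0.27 without piglet 20, which had its highest signal. KCNN2 differed by 0.17, with an interval from -0.41 to 0.75, and by -0.10 without piglet 6, which had its lowest signal.

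Microalgae gave no channel gene past either threshold against the control diet. With limma, 0 of 52 channel genes had an adjusted or an unadjusted p under 0.05, against 0% and 1.65% of all probe sets. Without piglet 7, 8 or 14 the unadjusted count was 1, without 17 or 21 it was 2, and without 16 it was 3. KCNK9 again had the largest estimate, 0.59 ± 0.329, with a 95% interval from -0.10 to 1.28. It was 0.33 without piglet 6 and 0.92 without piglet 16. Its 5 microalgae signals were 3.50, 3.83, 3.23, 3.85 and 3.46, inside the control range of 2.10 to 4.46. The fish oil and microalgae comparisons share the same 6 control-diet piglets, so the 2 KCNK9 estimates are not independent. KCNK9 passed the cutoff only through the piglets of these 2 diets, so its estimates are a description and support no difference. KCNK5 had the only exact permutation p under 0.05, with a difference of 0.17 ± 0.173 (exact p = 0.0350; limma adjusted p = 1), and of 0.11 without piglet 23. That is 1 of 52 genes (1.92%), against 2.01% of all probe sets, a share near the background. No channel gene had microalgae and control groups without overlap, beside 0.111% of all probe sets. The 5 KCNK5 microalgae piglets had 3.94, 4.22, 3.98, 4.02 and 4.26, and the control-diet piglets ran from 3.81 to 4.01.

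**Figure D3:**
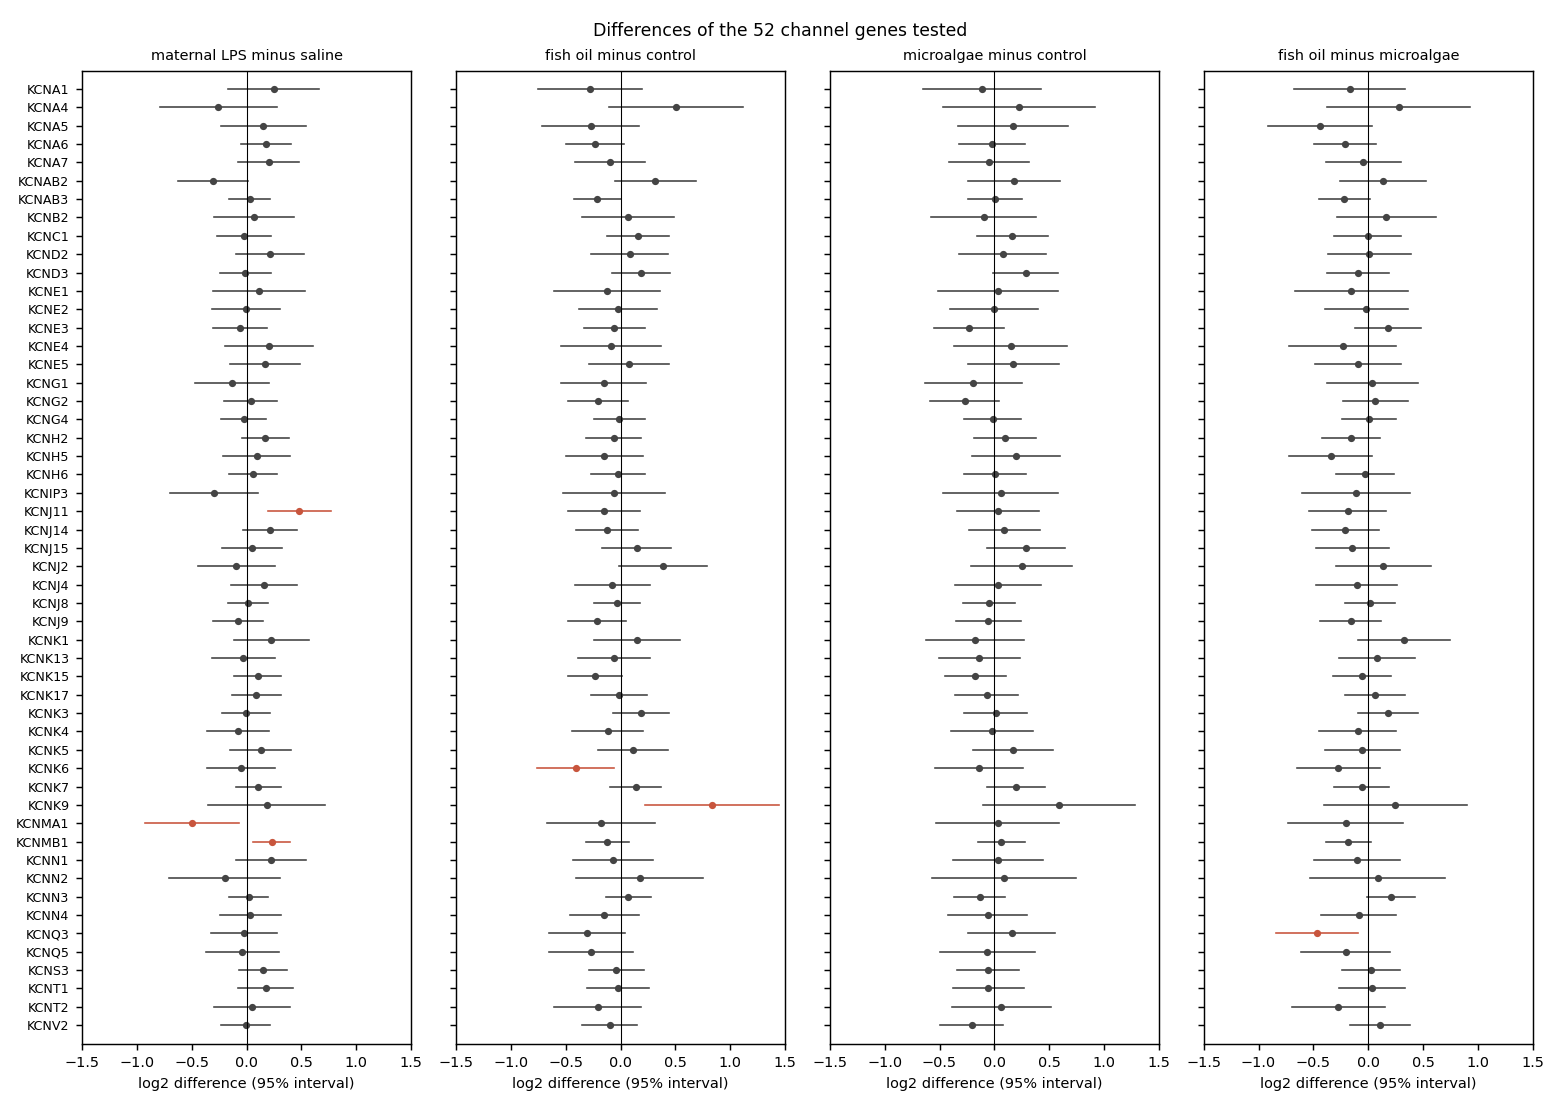
Difference in log2 signal (x axis) of each of the 52 tested channel genes (y axis) for maternal LPS minus saline, fish oil minus control, microalgae minus control and fish oil minus microalgae; dots are estimates, lines 95% intervals, and red marks an unadjusted limma p under 0.05. There are 3, 2, 0 and 1 red genes in the 4 panels, and none passes adjustment over 20668 probe sets.

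Between fish oil and microalgae, 0 channel genes and 0% of probe sets had a limma adjusted p under 0.05. At the unadjusted threshold there was 1 of 52 genes (1.92%), against 2.85% of all probe sets. That gene was KCNQ3, a subunit of the M-type channels that damp repetitive firing in neurons. Its 8 fish oil signals had a lowest value of 4.21, a median of 4.77 and a highest of 5.10. The 5 microalgae piglets had 5.09, 5.16, 5.49, 5.58 and 4.78. Microalgae piglets 12 and 23 lay inside the fish oil range and the other 3 above it, and all 8 fish oil piglets lay under the microalgae mean of their challenge. The difference was -0.46 ± 0.177 (limma adjusted p = 1; exact permutation p = 0.0457). It was -0.26 without piglet 7, and the count of genes was then 0. The count was 2 without piglet 8, 12 or 22, 3 without piglet 10 and 4 without piglet 19, 23 or 24. KCNMB1 had the other exact p under 0.05, at -0.18 (exact p = 0.0286), and at -0.11 without piglet 15. The exact test thus called 2 of 52 genes (3.85%), against 2.48% of all probe sets, and 0 of 52 had groups without overlap, against 0.0387%.

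Mean scores of cell type markers also differed between fish oil and microalgae piglets, with overlapping ranges, and no such difference was tested. The fibroblast and capsule score differed by -0.43, with 13 of 14 markers lower, from -0.97 to 0.51 on fish oil and from -0.38 to 0.91 on microalgae. The endothelial score differed by 0.25, with 8 of 8 higher, from 0.01 to 0.25 and from -0.36 to 0.12 in the same order. The macrophage score differed by 0.22, with 10 of 11 higher, from -0.22 to 0.63 and from -0.40 to 0.32. The smooth muscle and pericyte score, a cell type where KCNMB1 is known, differed by -0.16, with 7 of 8 lower, from -0.61 to 0.23 and from -0.01 to 0.12. The medulla score differed by -0.20, with 10 of 12 lower, from -0.68 to 0.40 and from -0.32 to 0.51. With the medulla score in the fit the KCNQ3 difference was -0.39, and the part of the other cell types in the KCNQ3 and KCNMB1 differences was not tested.

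Interactions asked whether the difference between maternal LPS and saline depended on the sow's diet. For fish oil against control, limma gave 0 channel genes and 0% of probe sets at an adjusted p under 0.05, and 4 of 52 genes (7.69%) at an unadjusted p under 0.05, against 2.64% of all probe sets. The 4 genes were the voltage-gated KCNA6, the modifier subunit KCNG2, the accessory subunit KCNE4 and the sodium-activated channel KCNT2. In all of them the control-diet mean was higher after LPS and the fish oil mean was lower. The count was 2 without piglet 6, 10, 11 or 21.

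KCNA6 lay close to the cutoff, with a fish oil LPS mean of 3.14 under it. The control-diet piglets had 3.17, 3.47 and 3.30 after saline and 4.01, 3.98 and 3.46 after LPS, and the fish oil piglets 3.77, 3.46, 3.39 and 3.46 after saline and 2.98, 3.34, 3.19 and 3.06 after LPS. The saline and LPS ranges did not overlap on fish oil and overlapped on the control diet. KCNA6 was picked by its interaction p, and the share of all probe sets without overlap within a diet was not counted. LPS minus saline was 0.50 ± 0.190 on control and -0.38 ± 0.165 on fish oil, an interaction of -0.88 ± 0.251 (limma adjusted p = 1).

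KCNT2, which opens with rising sodium inside the cell, had control-diet signals of 4.29, 3.96 and 4.32 after saline and 5.19, 4.02 and 4.47 after LPS. On fish oil it had 4.81, 4.53, 4.38 and 3.97 after saline and 3.36, 4.33, 3.84 and 4.12 after LPS. The saline and LPS ranges overlapped on both diets, and the highest of the 19 values was in piglet 6. The interaction was -0.88 ± 0.377 (limma adjusted p = 1), and -0.57 without piglet 6. KCNE4, which inhibits some KCNQ and KCNA channels, had control-diet signals of 4.28, 3.21 and 2.50 after saline and 3.95, 3.90 and 4.50 after LPS. Its fish oil signals were 3.79, 3.36, 3.91 and 4.18 after saline and 3.15, 3.67, 3.53 and 3.53 after LPS. The widest group was control saline, where 3.21 and 2.50 lay under the cutoff, as did 3.15 on fish oil after LPS. The interaction was -1.13 ± 0.433 (limma adjusted p = 1), -0.71 without piglet 21 and -1.61 without piglet 8.

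KCNG2, which is silent alone and modifies KCNB channels, was the only gene among the 5 leading ones of both interactions. Control-diet piglets had 4.40, 4.81 and 4.09 after saline and 5.24, 4.89 and 4.62 after LPS. Fish oil piglets had 4.40, 4.57, 4.68 and 4.43 after saline and 4.10, 4.45, 4.55 and 4.57 after LPS, and microalgae piglets 4.57, 4.63 and 4.43 after saline and 4.49 and 4.06 after LPS. The control-diet groups overlapped between 4.62 and 4.81, and the highest value was again in piglet 6. The interaction was -0.58 ± 0.264 for fish oil and -0.76 ± 0.299 for microalgae (limma adjusted p of 1 and 0.858). Both use the same 6 control-diet piglets. KCNE3, the fifth gene by p for fish oil and a subunit known from epithelial KCNQ1 channels, had an interaction of 0.50 ± 0.267, and 0.33 without piglet 24.

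Marker scores also varied in the same contrast, and their interactions were not tested. For the fish oil interaction the macrophage score had a value of -0.56, with 11 of 11 markers below 0, the medulla score -0.37, with 10 of 12 below 0, and the fibroblast score 0.57, with 11 of 14 above 0. By group, the medulla score ran from -0.11 to 0.27 in control saline, -0.70 to 0.53 in control LPS, -0.20 to 0.40 in fish oil saline and -0.68 to 0.06 in fish oil LPS. The macrophage score ran from -0.38 to -0.08, 0.08 to 0.13, -0.20 to 0.63 and -0.22 to 0.29 in the same order, and the fibroblast score from -0.41 to 0.88, -0.89 to 0.75, -0.97 to -0.14 and -0.97 to 0.51. The part of macrophages and fibroblasts in the channel values was not tested. With the medulla score in the fit, the 4 interactions kept their sign, but that of KCNT2 was -0.63 instead of -0.88. Over all alternative fits, this one among them, KCNA6 ran from -0.88 to -0.66, KCNE4 from -1.29 to -1.13 and KCNG2 from -0.61 to -0.40.

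**Figure D4:**
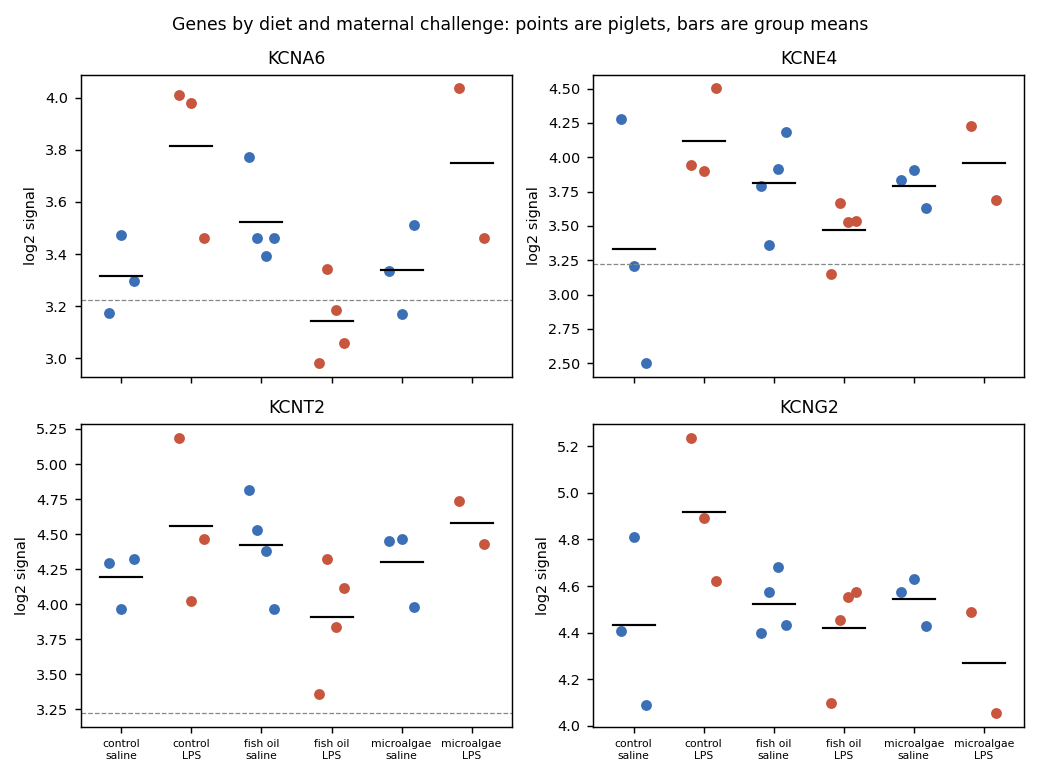
Log2 signal (y axis) of KCNA6, KCNE4, KCNT2 and KCNG2 by group (x axis); points are piglets, blue after maternal saline and red after maternal LPS, black bars are group means and a dashed line is the cutoff at 3.23. On the control diet the LPS mean lies above the saline mean in each panel and on fish oil below it, with interactions between -1.13 and -0.58.

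For microalgae against control, limma gave 0 channel genes and 0% of probe sets at an adjusted p under 0.05, and 2 of 52 genes (3.85%) against 5.41% at the unadjusted threshold. Besides KCNG2 this was the inward rectifier KCNJ14 (Kir2.4). Its control-diet piglets had 4.39, 4.29 and 4.24 after saline and 4.38, 4.32 and 4.07 after LPS. Microalgae piglets had 4.46, 3.80 and 3.91 after saline and 4.64 and 4.75 after LPS. The interaction was 0.69 ± 0.307 (limma adjusted p = 0.858). It rests on 2 LPS piglets on microalgae. Next by p came the tandem-pore KCNK7, at 0.49 ± 0.254, the voltage-gated KCNH5, at 0.67 ± 0.378, and the modifier subunit KCNG1, at 0.74 ± 0.419. KCNH5 was 0.26 without piglet 7 and 1.08 without piglet 23, and KCNG1 was 0.42 without piglet 8. The count of genes was 1 without piglet 6, 7, 17 or 22. The zona glomerulosa score had a microalgae interaction of -0.75, with 5 of 5 markers below 0. It ran from 0.04 to 0.90 in microalgae saline, -0.43 to -0.38 in microalgae LPS, -0.38 to 0.19 in control saline and -1.32 to 0.74 in control LPS, and its part was not tested. The macrophage score had a microalgae interaction of -0.55, with 9 of 11 below 0. It ran from -0.40 to 0.32 in microalgae saline, -0.25 to -0.14 in microalgae LPS, -0.38 to -0.08 in control saline and 0.08 to 0.13 in control LPS. The fibroblast and capsule score had -0.40, with 8 of 14 below 0, and ran from 0.03 to 0.91, -0.38 to 0.13, -0.41 to 0.88 and -0.89 to 0.75 in the same order. Their part was not tested either.

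Channel genes also differed in how they varied with the medulla content of a sample within groups. The medulla score, the mean relative log2 of the 12 medulla markers, ranged from -0.70 in piglet 16 to 0.53 in piglet 6, with an SD of 0.377. It holds no channel gene. With group means in the fit, the slope on this score passed an adjusted p of 0.05 in limma for 1 of 52 channel genes (1.92%), KCNMA1, and for 110 of 20668 probe sets (0.532%), 9 of them markers in the score. At an unadjusted p under 0.05 there were 9 channel genes (17.3%), against 5.60% of all probe sets. That count was 5 without piglet 6 and 3 without piglet 16.

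KCNMA1, which is abundant in chromaffin cells, rose by 1.02 ± 0.188 log2 per unit of the score (limma adjusted p = 0.0154). Its signal was 4.01 in piglet 24 and 4.92 in piglet 16, which had the lowest scores, and between 5.62 and 6.27 in the 5 piglets with the highest. The slope without piglet 7 was 1.0 (limma adjusted p = 0.0600), without piglet 16 it was 1.14 (adjusted p = 0.0921) and without piglet 23 it was 1.0 (adjusted p = 0.0602). The call was kept in the other 16 omissions of a piglet. KCNMA1's subunit KCNMB1 had a slope of 0.02 ± 0.121. KCNMB2, the subunit that inactivates BK channels and is known from chromaffin cells, lay under the cutoff. In the fit without a filter its slope was 0.86 ± 0.263 (limma adjusted p = 0.400), and it was named after its value was seen. Of the 17 genes under the cutoff, 2 had an unadjusted limma p under 0.05 for the slope in that fit. The other was KCNH8, at 0.25 ± 0.118 (limma adjusted p = 0.909), which lay under the cutoff on every array.

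Other slopes did not pass adjustment. KCNT2 had 0.68 ± 0.187 (limma adjusted p = 0.20) and, without piglet 24, an adjusted p of 0.0450. The M-type subunit KCNQ5 had 0.59 ± 0.194 (adjusted p = 0.446 in limma), and its second probe set 0.22 ± 0.184. KCNK15 had 0.34 ± 0.130. The inward rectifier KCNJ2 (Kir2.1), which sets the resting potential in many cells, had the lowest slope, -0.61 ± 0.206 (limma adjusted p = 0.471), and -0.38 without piglet 6, where its signal was 4.63 against 5.12 to 6.22 in all others. Further genes with an unadjusted p under 0.05 were KCNH5 with a positive slope and KCNA1, KCNJ4 and KCNJ15 with negative ones. KCNK9 had -0.59 ± 0.357 and KCNN2 -0.54 ± 0.341.

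**Figure D5:**
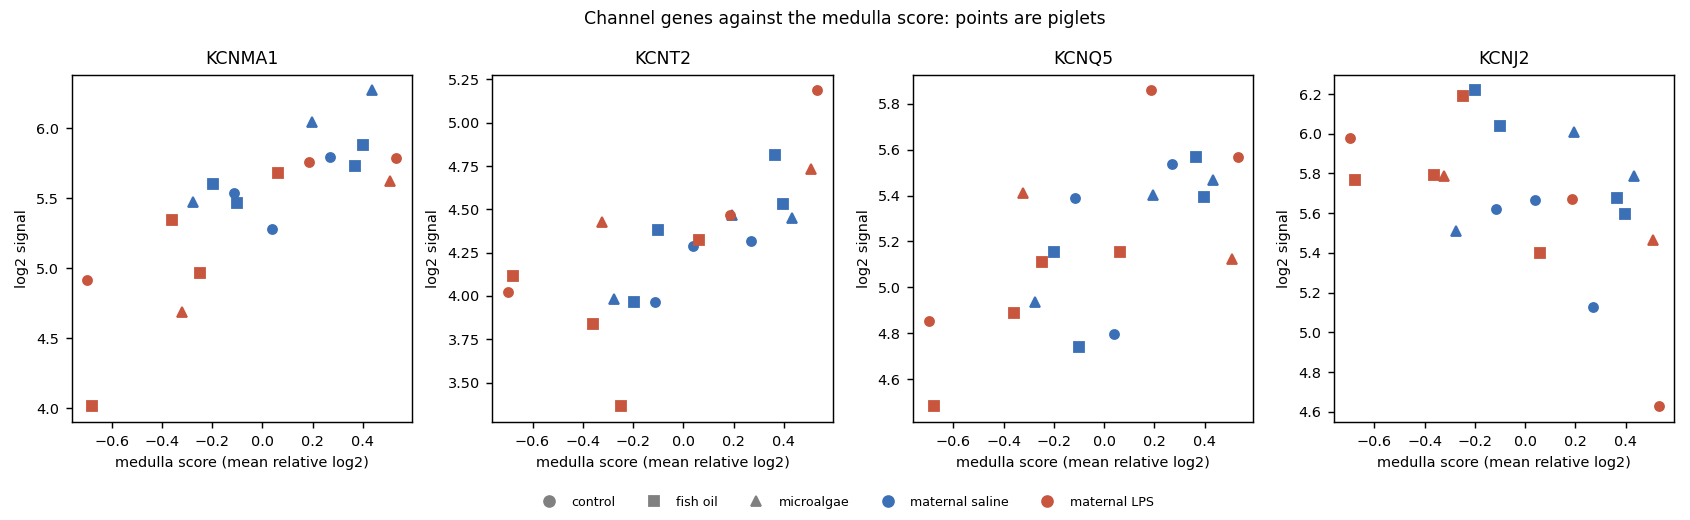
Log2 signal (y axis) of KCNMA1, KCNT2, KCNQ5 and KCNJ2 against the medulla score (x axis, mean relative log2 of 12 markers); points are piglets, shaped by the sow's diet and coloured by maternal challenge. KCNMA1 is lowest, at 4.01, in piglet 24, which has the second lowest score, and its slope within groups was 1.02 ± 0.188.

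Where a symbol had 2 probe sets, they did not always read alike. The pairs of KCNAB3 and of KCNS2 held identical values. Those of KCNK4, KCNK5, KCNN4 and KCNQ5 differed on some array by up to 1.32, 2.92, 0.609 and 1.22 log2. KCNK5's other probe set had a mean of 1.81 and was left out by the cutoff. The fish oil difference of KCNN4 was -0.15 for the probe set used and 0.07 for the other, and the LPS difference of KCNK4 was -0.08 and 0.11. Limma adjusted p for these 4 differences ran from 0.784 to 1.

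Potassium channels act with other channels, ion pumps and calcium signalling. Over channel partners outside the KCN symbols (8 tested of 17 listed), voltage-gated calcium channels (9 of 18), voltage-gated sodium channels (3 of 14), ion pumps and chloride channels (11 of 23) and genes of aldosterone control (18 of 28), limma gave 0 adjusted p under 0.05 in the 4 comparisons of maternal treatment. At an unadjusted p under 0.05, maternal LPS had the calcium channel beta subunit CACNB3 at -0.41 ± 0.184, and the calmodulin kinases CAMK2B at -0.39 ± 0.150 and CAMK1 at 0.22 ± 0.0924. These were 1 of 9 calcium channel genes and, of 18 aldosterone genes, 1 lower and 1 higher, against 6.97% of all probe sets. Of the 18 aldosterone genes, 15 had estimates below 0 after LPS, with a median of -0.12, beside 0.01 for all probe sets. The zona glomerulosa score, whose marker AGTR1, the angiotensin II receptor, is also one of the 18, differed by -0.21 after LPS, with 4 of 5 markers lower. It ran from -1.32 to 0.89 in LPS piglets and from -0.59 to 0.90 in saline piglets, and its part in the aldosterone genes was not tested. CAMK1 was also higher on fish oil, at 0.28 ± 0.106, as 1 of 18 aldosterone genes, against 2.69% of all probe sets. Fish oil minus microalgae had the pacemaker channel HCN4 at -0.32 ± 0.144, the sodium channel subunit SCN4B at 0.30 ± 0.131 and the kinase PRKCE at 0.27 ± 0.126. They were 1 of 8 channel partners, 1 of 3 sodium channel genes and 1 of 18 aldosterone genes, against 2.85% of all probe sets. CACNB3 and CAMK2B had medulla slopes of 0.66 ± 0.228 and 0.60 ± 0.176 (limma adjusted p of 0.508 and 0.280).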

How the data were processed

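Whole adrenal RNA was labelled with the Affymetrix WT PLUS kit and hybridised to 1 array per piglet, per the labels' protocols. The authors deposited log2 signals, which were used as given; Transcriptome Analysis Console 4.0 is named in the submitters' processing notes, and the background correction, normalization and log base are not given in the sources used here, so base 2 was read from the range, 0.26 to 13.5. Symbols came from GEO's platform annotation: 13157 probe sets had 1 symbol, 523 several and 13878 none. Of the 69 channel symbols 65 matched a RefSeq gene ID, 64 with the same symbol; KCNK17's ID is named otherwise there.

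Group means were fitted with limma 3.58.1 (R 4.3.3; trend; 13 residual degrees of freedom) after the lowest 25% of probe sets by mean were left out, with Benjamini-Hochberg adjustment over 20668 probe sets at 0.05. The scripts were tested on simulated data. Exact two-sided permutation tests shuffled maternal challenge within diets or diet within challenges, over all tested probe sets; 14000, 1225, 200 and 525 arrangements allowed smallest p of 7.14e-05, 0.000816, 0.00500 and 0.00190 for LPS, fish oil, microalgae and fish oil against microalgae. The number of arrays limits the precision. Each piglet is from its own sow.

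Named genes were those with an adjusted p under 0.05, an unadjusted p under 0.05 in a comparison of treatment, the 5 smallest p of each interaction and slope, the 5 largest SDs, and 20 listed adrenal channel genes, of which 17 had a probe set and 15 were tested. Members and lists were chosen with earlier results of these data known.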

Additional observations from a re-analysis of the deposited data

Results flagged for a closer look

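In 6 cases the interaction of maternal LPS with the sow's diet had an unadjusted limma p under 0.05, none past adjustment. For fish oil that was 7.69% of the 52 channel genes, against 2.64% of all probe sets. For microalgae it was 3.85%, against 5.41%. KCNG2 is in both, which use the same 6 control-diet piglets. Against the control diet, the fish oil interaction was -0.88 for KCNA6, -1.13 for KCNE4, -0.58 for KCNG2 and -0.88 for KCNT2. The microalgae interaction was -0.76 for KCNG2 and 0.69 for KCNJ14. Dixon's test made no call in 64 combinations of gene and group of 4 piglets. KCNK5 in piglet 24 (fish oil, LPS) was among them, at 5.0 against 3.68 to 4.26 in the other 18 piglets.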

How the results depend on the processing

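Every alternative and every omission of a piglet left 0 channel genes with a limma adjusted p under 0.05 in the 4 comparisons of maternal treatment and the 2 interactions. The gene results refitted (those of genes named in a comparison, interaction or slope by their p) kept their sign. Of 31 named genes that were tested, single omissions turned the sign of 15 in the LPS comparison, 10 on fish oil, 19 on microalgae and 9 between the oil and the algae, none past a limma p of 0.05. With the lowest 50% left out, 24 genes had means above the cutoff, and unadjusted counts were 0 for fish oil, 1 for each interaction and 5 for the medulla slope. Quantile normalization gave 1 for fish oil, 2 for fish oil against microalgae and 1 for the microalgae interaction. Median centring gave 2 and 1 for the last 2. Array weights gave 2 for fish oil against microalgae and 15 slopes. Without both piglets 6 and 24, fish oil against microalgae gave 4 and the fish oil interaction 2. Adjusted slopes numbered 2, KCNMA1 and KCNT2, with array weights and without group terms. Leaving out each piglet gave unadjusted counts of 2 to 5 for LPS, 2 to 6 for fish oil, 0 to 3 for microalgae, 0 to 4 for fish oil against microalgae, 2 to 5 and 1 to 3 for the interactions and 3 to 12 for the slope, and 0 to 2 adjusted slopes. The cause of these changes was not tested. The KCNMA1 slope kept its call in 10 of 10 alternatives (0.91 to 1.13). Without piglet 7 or 23 the microalgae LPS group holds 1 piglet, assumed to vary like the others. No paired analysis was possible because the groups share no piglet numbers. Low signals, such as those of KCNK9, KCNA6 and KCNE4, limit what these arrays resolve.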
